A study of Glycine max with 23 samples.

Results

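The flower course of soybean (Glycine max, cultivar Williams 82) was followed in 5 small RNA libraries out of the 23 of the series. They were picked by their labels. In order of stage they are the flower bud, taken while flower buds were differentiating, the bud just before flowering, florescence, a flower at florescence from another date, and the flower 5 days after flowering. The last 3 are called open flowers below and the first 2 closed buds. All plants were untreated and field grown at 1 station, and each stage is a single library of a whole organ, except that florescence has 2. No library has a replicate. The SDs below are therefore spreads between stages and dates, and limma's p-values rest on the spread between libraries of an organ, over all organs of the series. In a whole organ, fewer cells of a type and less of an RNA per cell cannot be told apart. The other 18 libraries hold leaf, stem, root, cotyledon, leaf bud, pod and seed, and the pod of 1 week is given where it continues the course.

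Plant microRNAs (miRNAs) are cut from hairpin precursors in the nucleus, loaded into ARGONAUTE proteins and guided to messenger RNAs by near-perfect pairing, which mostly leads to cleavage. In flowers they are known for timing (miR156 and its SPL targets, miR172 and its AP2-like targets), for anther and petal growth (miR159 and GAMYB-like genes, miR319 and TCP genes), and for auxin signalling (miR167 and the ARF6 and ARF8 genes needed for fertile ovules and anthers in Arabidopsis). The arm of a hairpin that is not the guide is usually degraded.

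The sequences below carried the differences along the course and are shown as the deposited table gives them, with T for U, 5′ to 3′, and with the seed (bases 2 to 8) in capitals. The first set was higher in closed buds. It holds miR4392, the miR395 guide, a sequence from a hairpin overlapping a named miR395 hairpin, and 4 sequences known only by a locus number. Of these, M2463-5p was high in the flower bud only, and neither it nor miR395d passed the test of open flowers against closed buds. The second set was higher late in the course. The third holds 2 pairs of near copies, with 1 or both of a pair listed at 0 in some libraries.
miR4392: tCTGCGAAaatgtgatttcgga
miR395d: tGAAGTGTttgggggaacttt
M3160-5p: aGTTCCTCtgaacacttcaca
M6363-3p: cGGCAAGTaatctttggctgc
M5859-5p: tAATGTGTtggtatagtgaag
M5475-3p: tCAGAATAtaaatcatgggcc
M2463-5p: tGGAGAAGcagggcacatgct
miR1512c: tAACTGAAcattcttagagcat
miR1512b: tAACTGGAaattcttaaagcat
M4865-5p: tACTTGTTtggcatgaaagagg
M4865-3p: tCTCTCATggcaaaaacatatc
M4866-5p: tTTGGGGTgcaagcctataaa
M4866-3p: tATAGGCTtgcaccctaaaca
miR319a: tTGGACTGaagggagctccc
miR319h: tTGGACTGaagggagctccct
miR169e: aGCCAAGGatgacttgccgg
M7060-5p: tAGCCAAGgatgacttgccgg
Of these, miR319a and miR319h share a seed, since the second is the first with 1 base more at its 3′ end, and M7060-5p is miR169e with 1 base more at its 5′ end, which shifts the seed. miR1512b and miR1512c do not share theirs.

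Values are tags per 5000000 sequenced tags (TP5M), as scaled by the authors. The 5 libraries held 4044598 to 5434232 tags, so that 1 read was worth 0.920 to 1.24 TP5M, and a count of 0 allows up to 2.76 to 3.71 TP5M (3 reads, counting error only). The sequences of the table took 11.9% of the tags in the bud before flowering and 6.78% in the other-date florescence, the extremes of the 5. For 610 of the 2839 distinct sequences the mean over the 5 libraries was at least 5 TP5M, and these were tested.

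No mature miRNA was taken as a defining marker of the flower, so the labels were set against the likeness of libraries only. The other-date florescence stood apart from the remaining flower libraries, and this touches every comparison below. Over the 610 sequences its log2 values were most like those of the 1 week pod, with Pearson's r of 0.923 across sequences of 2 single libraries. Its r was 0.890 with the flower 5 days after flowering and 0.880 with the first florescence, whose own closest library was the flower 5 days after flowering at 0.943. It was the lowest of the 5 for 302 of the 593 sequences without ties, or 50.9%. The sequences of the table also took the lowest share of tags in it, 6.78%. The flower bud was closest to the bud before flowering (r 0.928) and next to the leaf bud of the same stage (r 0.911). Libraries share depth and base composition effects, and these values are a description.

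**Figure D1:**
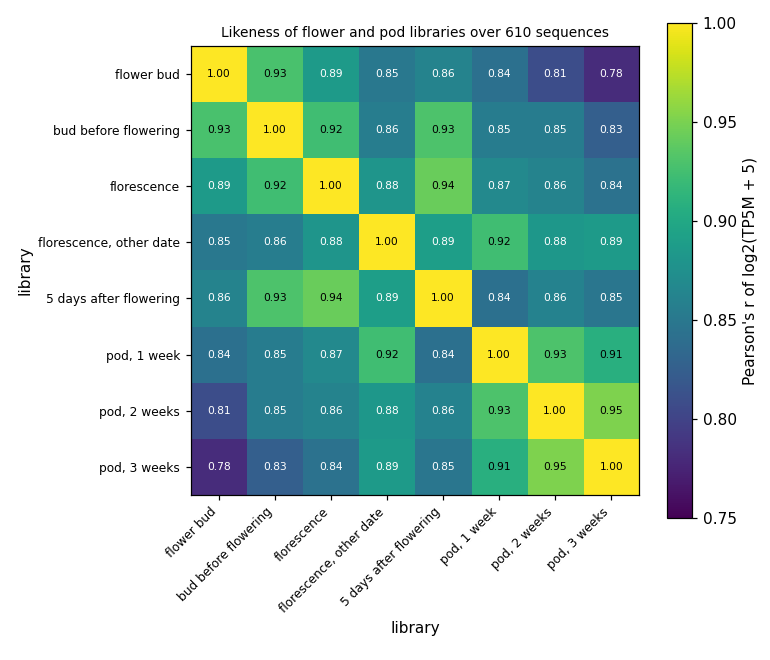
Pearson's r of log2(TP5M + 5) over 610 sequences between the 5 flower libraries and the 3 pod libraries, with each library on both axes and r as colour and number. The other-date florescence reaches 0.92 with the 1 week pod and 0.88 with the other florescence library.

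Open flowers were compared with closed buds across all 610 sequences. No sequence passed the test as higher in open flowers (0%), and 5 fell, which is 0.82% of those tested. With limma's unadjusted p under 0.05, 16 were higher and 23 lower. miR4392 and 4 sequences of unnamed arms made up the 5, and none of the families shared by most flowering plants had a named member among them. In every open flower the level was above both closed buds for 42 sequences (6.89%) and below both for 77 (12.6%).

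miR4392, a soybean miRNA without a function given in the sources used here, lies in a hairpin on chromosome 9 (46771234 to 46771343, plus strand; coordinates as in the deposited table, whose genome build is not given in the sources used here). Its level was 207.1, 7.42 and 170.22 TP5M in florescence, other-date florescence and the flower 5 days after flowering, against 3541.58 and 1338.81 TP5M in the flower bud and the bud before flowering. The 3 open flowers lay below both closed buds, and the other-date library, with 6 reads, was far below the remaining pair. The mean was 128 ± 106 TP5M in open flowers and 2440 ± 1560 TP5M in closed buds (SD, n = 3 and 2), 19.0-fold lower in open flowers. On the log2(TP5M + 5) scale it fell by 4.82 (SE 0.91, adjusted p = 0.00579, limma). Without the other-date library it fell by 3.50 on the same scale (adjusted p = 0.00599). Over all alternatives run the adjusted p lay between 0.00294 and 0.540, the highest with edgeR on reads. Outside the flower the highest level was 335.15 TP5M in the leaf bud, and 10 of the 18 other libraries, the 1 week pod among them, were at 0. Because earlier results of these data had already shown miR4392 as rich in flowers, its level in flowers is no independent evidence.

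M3160-5p comes from a hairpin on chromosome 8 (40810571 to 40810696, minus strand) that overlaps a named miR395 hairpin. It had 48.73, 3.71 and 19.32 TP5M in the open flowers in stage order, against 227.36 and 165.1 TP5M in the closed buds. It fell by 3.14 on the log2 scale (SE 0.57, adjusted p = 0.00436, limma; 0.000763 to 0.675 over the alternatives). The miR395 guide, which acts on sulfate assimilation genes (ATP sulfurylases and a sulfate transporter in Arabidopsis), had the same order of levels but did not pass the test. miR395d, which the table lists for 4 hairpins, had 450.76, 29.67 and 256.71 TP5M in open flowers, against 4328.38 and 1580.76 TP5M in closed buds. The groups did not overlap, with means 12.0-fold apart, and the log2 difference was -4.03 (SE 1.46, adjusted p = 0.422). Elsewhere in the plant miR395d reached up to 805.19 TP5M, in old leaf at the trefoil stage.

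M6363-3p is the arm opposite miR169s in a hairpin on chromosome 17 (4864165 to 4864283, minus strand). Its levels were 0, 1.24 and 1.84 TP5M in the open flowers, at most 2 reads each, against 140.57 and 16.13 TP5M in the flower bud and the bud before flowering. The 3 open flowers were at or near the floor, and the flower bud held most of the signal. It fell by 3.21 on the log2 scale (SE 0.46, adjusted p = 0.000799, limma; 9.17e-11 to 0.341 over the alternatives). miR169s itself, whose family targets subunits of the transcription factor NF-Y, behaved otherwise. It had 1667.8, 499.43 and 690.07 TP5M in open flowers, against 974.55 and 566.45 TP5M in closed buds, with overlapping groups and a log2 difference of 0.16 (SE 1.28, adjusted p = 0.999). Across the 18 other libraries M6363-3p never exceeded 1.82 TP5M.

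The remaining 2 calls were faint. M5859-5p (chromosome 16, plus strand) had 2, 0 and 2 reads in open flowers, against 26 and 11 in closed buds, and fell by 1.75 on the log2 scale (SE 0.29, adjusted p = 0.00280). M5475-3p (chromosome 15, plus strand) had 3, 1 and 4 reads in open flowers, against 20 and 14 in closed buds, and fell by 1.43 (SE 0.24, adjusted p = 0.00280). Both are given no family by the table.

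Of the 10 sequences called in this contrast or in the slope described further on, 9 had a median of 0 over the 18 libraries outside the flower, as against 30 of the 610 tested. The fit shares 1 estimate of spread over all organs, so for these sequences the spread rests largely on libraries near 0. The filter on the 5 flower libraries also let several of them in only through the group where they were high. M5859-5p, M5475-3p, M2463-5p, M4865-5p and M4866-5p did not pass a filter on the mean of all 23 libraries and were not tested there. With the 5 flower libraries alone none of the 5 contrast calls passed, and the same holds for edgeR on reads, with 9 higher and 11 lower at an unadjusted p under 0.05. Without the flower bud M6363-3p alone was called.

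Among sequences higher in open flowers, miR1512c came closest to the threshold. miR1512 is a legume family, and miR1512c lies on chromosome 2 (8609646 to 8609749, minus strand), 8943 bases from the miR1512b hairpin. Its level was 58.48, 1272.06 and 44.16 TP5M in the open flowers in stage order, against 0.94 and 7.59 TP5M in the closed buds. All 3 open flowers lay above both buds, the other-date florescence by far the most. The log2 difference was 4.20 (SE 1.00, adjusted p = 0.0517, limma; 0.0112 to 0.878 over the alternatives). It passed the test without the first florescence (difference 4.86) and without the flower 5 days after flowering (difference 5.04).

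Earlier results of these data showed miR1512 as rich in pods, and it serves here as a list for young pod tissue. Summed over its 4 sequences it was at 9.43, 56.93, 160.82 and 187.69 TP5M from flower bud to the flower 5 days after flowering, at 1656.53 TP5M in the other-date florescence and at 4717.09 TP5M in the 1 week pod. miR3522, rich in vegetative organs in the same earlier results, had sums of 403.78 to 956.9 TP5M in the 5 libraries, against a median of 3745.46 TP5M in the 18 others. What share pod tissue had in the level of miR1512 was not tested.

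The other sequences of large difference were listed at 0 in both closed buds. gso-miR1508a had 372.79, 456.16 and 311.91 TP5M in open flowers, and 0 in both closed buds (adjusted p = 0.377). miR156a had 671.26, 96.42 and 573.22 TP5M in open flowers, and 0 in both closed buds (adjusted p = 0.735). miR393h, of a family that targets auxin receptor genes, had 213.2, 33.38 and 138.93 TP5M in open flowers, and 0 in both closed buds (adjusted p = 0.578). Of these, gso-miR1508a was called when the 5 flower libraries were fitted alone (0.00194; 0.00194 to 1.00 over its alternatives).

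Such zeros recurred. Among the 610 sequences, 22 were listed at 0 in at least 1 flower library while every flower library above 0 held 10 reads or more. Of the 22, 17 shared 17 bases in a row with another sequence that was above 0 in the same library. The highest level of such a copy there ranged from 1.9 TP5M, for gso-miR1508a, to 43641.4 TP5M, for M2871-3p. It was also low for M0530-3p (6.64 TP5M) and miR156a (7.59 TP5M), far below what these 2 sequences reached in other flower libraries (711.33 and 671.26 TP5M). miR319h had 8528.46 TP5M in the flower bud, where miR319a, its near copy, had 15061.6 TP5M. In the 4 later libraries miR319h was listed at 0, while miR319a had 17346.6, 20019.7, 3853.27 and 15181.6 TP5M. M7060-5p had 4205.74 and 2409.09 TP5M in the closed buds, 0 in florescence, 295.45 in other-date florescence and 1595.45 TP5M in the flower 5 days after flowering. Its near copy miR169e was at 0 in the first 3 stages, at 84.06 TP5M in other-date florescence and at 668.91 TP5M 5 days after flowering. How reads were shared out between such copies is not given in the sources used here. No fold is given for these sequences, except for M4865-5p, which had no such copy and whose slope is described below. Counts of sequences past 4-fold below include some of them.

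**Figure D2:**
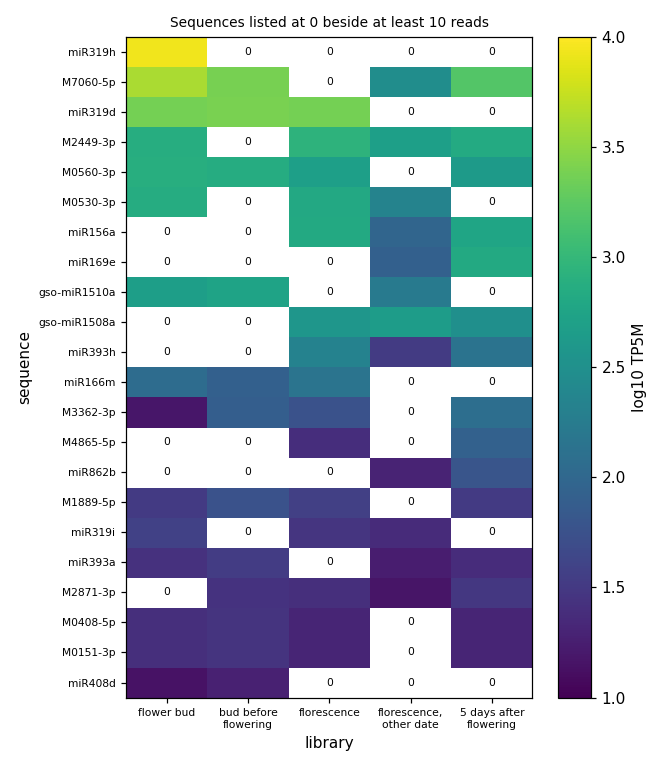
Level of the 22 sequences listed at 0 beside at least 10 reads, as log10 TP5M in colour by flower library, with white cells for 0, sorted by their highest level. miR319h is above 0 in the flower bud alone, and miR156a, miR393h and gso-miR1508a are listed at 0 in both closed buds.

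The ordered course was tested as a slope over the stages, with both florescence libraries at the same step. It was higher with stage for 4 sequences (0.656%) and lower for 5 (0.82%). At an unadjusted p under 0.05 there were 17 and 19. The 4 higher ones were both arms of 2 unnamed hairpins, M4865 and M4866, which lie 219 bases apart on the minus strand of chromosome 13 (6673554 to 6673912 and 6674132 to 6674357).

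M4865-5p was listed at 0 in the flower bud and the bud before flowering, at 24.37 TP5M in florescence, at 0 in other-date florescence and at 86.49 TP5M (94 reads) 5 days after flowering. M4866-5p had 0, 0.95, 9.75, 1.24 and 18.4 TP5M in the same order. The first florescence and the last stage therefore held nearly all reads of both, and the other-date library held at most 1. M4865-5p rose by 1.33 log2 per step (SE 0.26, adjusted p = 0.00795, limma; 1.15e-06 to 0.720 over the alternatives). M4866-5p rose by 0.72 log2 per step (SE 0.13, adjusted p = 0.00508), M4865-3p by 0.83 (SE 0.17, adjusted p = 0.0107) and M4866-3p by 0.71 (SE 0.15, adjusted p = 0.0150). In the 18 libraries outside the flower none of the 4 exceeded 0.77 TP5M. Without the other-date florescence they also passed the contrast of open flowers with closed buds, with log2 differences of 3.37 for M4865-5p, 1.98 for M4865-3p, 1.77 for M4866-5p and 1.83 for M4866-3p. Without the flower 5 days after flowering none of the 4 slopes passed.

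The 5 that fell with stage were M6363-3p, M3160-5p, M5859-5p, M5475-3p and M2463-5p, of which the first 4 were also the unnamed sequences called in the contrast. M6363-3p fell by 1.59 log2 per step (SE 0.20, adjusted p = 0.000143). M2463-5p (chromosome 7, 3508921 to 3509002, plus strand) had 41.51 TP5M in the flower bud, 1.90 in the bud before flowering and 0 in the 3 open flowers. It fell by 1.04 log2 per step (SE 0.17, adjusted p = 0.00328). The level of M2463-5p and of M6363-3p thus dropped mostly between the first 2 stages. Without the flower bud none of the 5 passed, and edgeR called M6363-3p and M2463-5p of the 9. miR4392 did not pass as a slope (-1.95 log2 per step, SE 0.53, adjusted p = 0.0974), but did without the other-date florescence (-1.57, adjusted p = 0.00517; 0.00517 to 1.00 over the alternatives) or without the flower 5 days after flowering. With the 5 flower libraries alone limma called no slope, with 18 higher and 21 lower at an unadjusted p under 0.05.

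**Figure D3:**
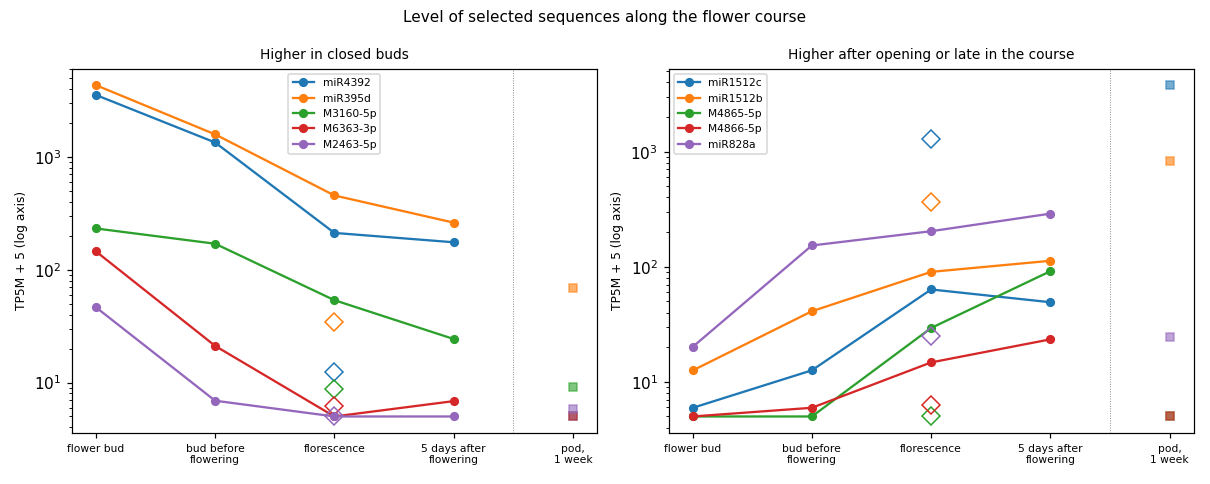
TP5M + 5 (log axis) by stage. The left panel holds 5 sequences higher in both closed buds or mainly in the flower bud, the right panel 5 higher late in the course. Circles joined by lines are the 4 stages, open diamonds the other-date florescence and squares the 1 week pod. miR4392 and miR395d stand at 3541.58 and 4328.38 TP5M in the flower bud and at 207.1 and 450.76 TP5M in florescence, and the diamonds of miR1512b and miR1512c lie toward the pod values.

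Few sequences moved the same way at every stage, with both florescence libraries between their neighbours. 4 were higher at each step (0.656%) and 9 lower (1.48%). The most abundant of the 4 was M7052-5p, which shares 18 bases in a row with miR4413, at 404.72, 514.27, 555.53, 566.19 and 584.26 TP5M in the 5 libraries in order. miR5762 had 3.77, 7.59, 32.89, 12.36 and 35.88 TP5M, and M0766-5p, which shares 18 bases in a row with a miR1512 sequence, had 0.94, 13.28, 15.84, 16.07 and 33.12 TP5M. Among the 9, miR482b-5p had 908.51, 851.11, 637.15, 820.85 and 590.7 TP5M and miR4346 had 87.74, 67.37, 52.39, 50.68 and 28.52 TP5M. Apart from M4866-5p, none of the 13 passed the slope test.

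Single steps were described by folds of TP5M + 5 past 4, with no test. From flower bud to bud before flowering 15 sequences were higher (2.46%) and 9 lower (1.48%). miR828a, which targets MYB genes of the anthocyanin pathway in Arabidopsis, was at 15.09 TP5M in the flower bud, then at 148.02, 198.58 and 284.31 TP5M in the later stages, with 19.78 TP5M in the other-date florescence. M4358-3p, from a miR828 hairpin, had 0.94, 68.32, 91.37 and 148.14 TP5M, and 1.24 TP5M in the other-date library. Both were thus low in the flower bud and in the other-date library. The largest decreases of this step outside the sequences listed at 0 were those of M6363-3p and M2463-5p.

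From bud before flowering to both florescence libraries 7 were higher (1.15%) and 3 lower (0.492%), of which 6 and 2 were listed at 0 on one side. Those not listed at 0 were miR1512c, higher, and miR4392, lower. From florescence to 5 days after flowering 2 were higher and 2 lower (0.328% each), all 4 of them sequences listed at 0. By way of scale, the 2 florescence libraries differed from each other past 4-fold for 80 sequences, so a change at these steps was asked of both.

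A level at least 4-fold above the other 4 libraries was found for 6 sequences in the flower bud (0.984%), 1 in the other-date florescence, 1 in the flower 5 days after flowering (0.164% each) and none in the bud before flowering or florescence. In the flower bud these were miR319h, M6363-3p, M2463-5p, miR5559 and both arms of M0775. M0775-3p, which shares 18 bases in a row with miR5670, had 175.48 TP5M there and 24.67, 7.31, 0 and 0.92 TP5M in the following libraries. miR1512c was the one of the other-date florescence, and miR169e, listed at 0 in 3 libraries, that of the last stage.

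Of the sequences in the 13 family lists, 136 were tested. miR4392 alone was called in the contrast, where 5 of all 610 sequences were, and none in the slope, where 9 of the 610 were, and with so few calls nothing is read from these counts about the lists. The lists' medians are given as log2 differences of open flowers minus closed buds, beside a median of -0.11 over all 610 sequences (356 of them below 0). For phase change the median was -0.11 (11 tested), for anther and petal -0.14 (9), for auxin -0.22 (12) and for boundary and meristem -0.27 (22). For growth (miR396) it was -0.70 (5), for copper -0.47 (8), for nutrient -0.08 (15) and for defence gene regulators -0.22 (16). On the positive side were nuclear factor Y (miR169) at 0.47 (17), the small RNA machinery at 0.55 (5), other legume families at 0.10 (12) and the single MYB regulator, miR828a, at 1.03. The 3 flower families, chosen on these data, had -0.87. Without the other-date library the median of all sequences was 0.06, and those of phase change (0.23), anther and petal (0.11), auxin (0.20), boundary and meristem (0.03), growth (0.38) and nutrient (0.16) were above 0 as well. With TMM scaling the nutrient median was 0.00 and the others kept their sign.

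In the family sums, taken over the sequences named for a family or sharing 18 bases in a row with one, the timing families differed in their course. miR156 was at 2471.74, 1068.4, 1478.97 and 1163.91 TP5M over the 4 stages and 354.8 TP5M in the other-date florescence, with miR156a listed at 0 in both closed buds. Its member miR156c had 704.15, 150.82 and 497.77 TP5M in open flowers, against 2391.56 and 976.35 TP5M in closed buds, without overlap (log2 difference -2.01, SE 0.89, adjusted p = 0.741). miR172 was lowest in the flower bud and the other-date florescence, at 1025.5 and 945.71 TP5M, and at 1450.06 to 1730.69 TP5M in the other 3 libraries. miR390, which starts the tasiRNA pathway that restrains ARF genes, was highest in florescence at 3418.43 TP5M, against 1021.72 TP5M in the flower bud and 723.18 TP5M in the other-date library.

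miR167 and miR168 ran in opposite directions over the 4 stages. miR167 was at 31476.07, 25139.4, 12474.97 and 10804.67 TP5M over the 4 stages, while the other-date florescence had 27048.33 TP5M and the 1 week pod 28197.06 TP5M. miR168, which targets AGO1, was at 19152.25, 33888.62, 53438.94 and 62454.22 TP5M, with 15661.57 TP5M in the other-date florescence and 12756.39 TP5M in the 1 week pod. In both families the other-date library was thus nearer the 1 week pod than the first florescence, but it was also nearer the flower bud. No tested member of either family passed the test (miR168a: log2 difference 0.55, adjusted p = 0.999; miR167e: -0.98, adjusted p = 0.999).

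**Figure D4:**
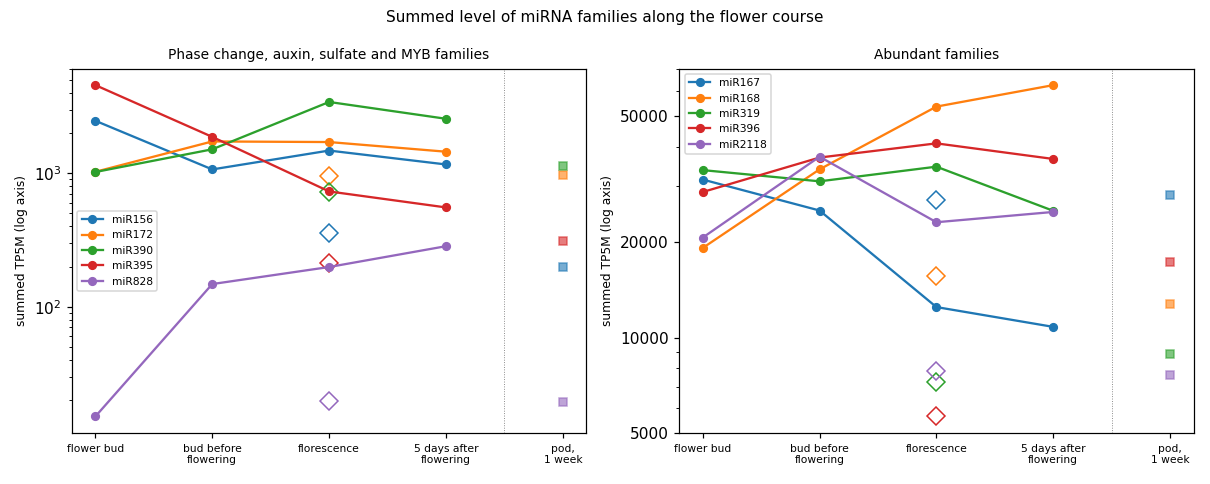
Summed TP5M (log axis) of 10 miRNA families by stage; circles joined by lines are the 4 stages, open diamonds the other-date florescence and squares the 1 week pod. The miR168 line climbs where the miR167 line descends, and the diamonds lie below the florescence circle for every family shown except miR167.

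The most abundant sequence, miR159a-3p, had 166039, 126478 and 158785 TP5M in open flowers, against 162855 and 166458 TP5M in closed buds. miR166a-3p, the regulator of HD-ZIP III genes that set organ polarity, had 37331.1, 29415.7 and 30684.3 TP5M in open flowers, against 43641.4 and 40136.7 TP5M in closed buds. miR2118a-5p had 23043.4, 7841.3 and 24849 TP5M in open flowers, against 20613.6 and 37124.2 TP5M in closed buds. None of the 3 passed the test. miR5761a was another sequence whose groups did not overlap. It had 3963, 2337.68 and 3620.57 TP5M in open flowers, against 1237.76 and 875.78 TP5M in closed buds, with a log2 difference of 1.63 (SE 2.66, adjusted p = 0.999).

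The pair of florescence libraries, the only 2 of one stage, was compared directly. In the other-date library 7 sequences were higher past 4-fold (1.15%) and 73 lower (12%). With TMM scaling 47 in all were past 4-fold, 10 higher and 37 lower. The summed signal of the other-date library was also lower, 339151 TP5M against 578070 TP5M in florescence. What part this had in the 73 was not tested. Of the 9 tested sequences of the miR396 family, whose 5p guides target growth regulating factor genes, 6 were lower. So were 5 of 13 for miR319, 5 of 13 for miR156, 4 of 6 for miR398 and 8 of 34 for miR169, where 2 were higher. These counts pool both arms of the hairpins, and miR396i-3p is not the guide arm. The 73 came from 30 families or loci, and 10 of them were listed at 0 in some flower library. miR396i-3p had 1462.44 TP5M in the other-date florescence, against 14474.1 TP5M in florescence. miR396a-5p had 592.15 TP5M in the other-date florescence, against 6744.28 TP5M in florescence. The corresponding 1 week pod values were 1259.86 and 924.85 TP5M, near those of the other-date library. This did not hold for the whole family. miR396b-5p, also among the 6, had 3055.92 TP5M in the other-date florescence and 14317 TP5M in florescence, but 13407 TP5M in the 1 week pod. The miR396 sum was 5643.32 TP5M in the other-date florescence, 40926.2 TP5M in florescence and 17363.79 TP5M in the 1 week pod. Of the 7 higher sequences, 5 were listed at 0 in some flower library and the rest were miR1512c and miR1512b. miR1512b had 357.27 TP5M in the other-date florescence, against 85.28 TP5M in florescence. The labels give neither the dates nor the age of the flowers, so date and stage within florescence cannot be told apart.

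**Figure D5:**
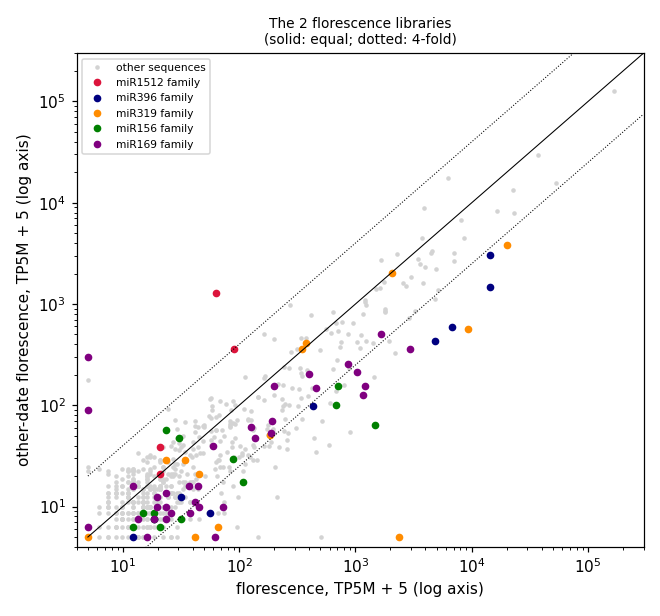
TP5M + 5 of 610 sequences in the other-date florescence (vertical) against florescence (horizontal), both log axes, with the line of equality and lines at 4-fold; colours mark 5 families. 73 sequences lie below the lower dotted line and 7 above the upper one, with miR1512b and miR1512c among the 7.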

How the data were processed

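Total small RNA of 23 soybean libraries was size-selected, amplified and sequenced on an Illumina instrument, per the labels' protocols. The deposited table holds 3933 entries whose values are a normalised signal, tags per 5000000 sequenced tags (TP5M), as scaled by the authors per the file headers. The submitters' processing notes list BWA. Its version, the genome build and the rule that shared reads between copies are not given in the sources here. Entries with the same mature sequence were merged by their maximum into 2839 sequences. 580 stood in more than 1 entry, and 2 of these disagreed. Columns were matched to libraries by the number in the title. The mean r within organs was 0.833 and between organs 0.729 with that number, against 0.762 and 0.739 with the number in brackets.

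Up to 200 reads, each of 28838 values was a whole read number within 0.1 (100%), which gave each library's total. The count test on these reads called 0 sequences in the contrast and 2 in the slope. The main test was limma 3.58.1 on log2(TP5M + 5) over all 23 libraries, with a mean per organ (or a slope over flower stages 1, 2, 3, 3 and 4), eBayes with trend, two-sided, Benjamini-Hochberg at 0.05 over 610 sequences. Log2 differences on that scale understate changes of low sequences. Alternatives were a pseudocount of 1, other filters, TMM scaling, edgeR 4.0.16 on recovered reads, the 5 flower libraries alone, and leaving out each flower library. Leaving out the 22 sequences listed at 0 was added after the data were seen.

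Families of locus numbers come from 18 shared bases in a row or an overlapping named hairpin. Named sequences are the called ones of largest difference per family or locus, filled to 5 a side with sequences whose groups do not overlap (or that move at every step), the 10 most abundant, the 3 most abundant of each of 13 lists, and the largest folds per step and peak. miR482b-5p, the other arms of M4865 and M4866, miR5559 and the remaining sequences listed at 0 were named after their values were seen. The libraries, lists and named families were chosen with earlier results of these data known. The other 18 libraries entered the fits but are not described. Python 3.11.15, pandas 2.3.3 and R 4.3.3 were used.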

Additional observations from a re-analysis of the deposited data

How the results depend on the processing

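The number of sequences called between open flowers and closed buds was 5. It was 1 with a pseudocount of 1, 15 with no filter, 3 with the filter on all 23 libraries, 0 with edgeR, 1 with the 5 flower libraries alone, 5 with TMM and 7 without the sequences listed at 0, an alternative chosen after seeing the data. Leaving out each flower library gave 1 to 9, with 1 without the flower bud (the lone closed bud left is assumed to vary like the other groups), 8 without the first florescence and 9 without the other-date florescence. The slope's 9 calls became 4, 21, 1, 2, 0, 8 and 8 under the same alternatives in that order, and 4 to 11 when a library was left out, with 4 without the flower bud. Steps past the fold numbered 24, 10 and 4 from first to last. A 2-fold limit gave 112, 35 and 22, and a pseudocount of 1 gave 41 for the first. Taking 1 florescence library in place of both gave 23 to 86 for the second step and 9 to 79 for the third, the higher count each time with the other-date library. The florescence pair's 80 became 248 at 2-fold, 133 with a pseudocount of 1 and 47 with TMM. Peaked sequences numbered 8, and 37 at 2-fold. List members called numbered 1 in the contrast and 0 in the slope, and 3 and 2 with related unnamed sequences. No called sequence changed direction under the alternatives run. The median difference over all sequences did, at 0.06 without the other-date library against -0.11 with it, as did 6 list medians. At the second step the split of 7 higher and 3 lower became 11 and 24 at 2-fold, and 11 and 75 with the other-date library alone. The causes were not tested. No paired analysis was possible because the stages have no replicates, and the numbering of libraries within a group only follows the order of deposit. Depth limits levels below about 3 reads, and several calls rest on fewer than 30 reads in any library.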

Other observations

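The share of the summed signal in 22 nt sequences was 20.5% in the flower bud, 19.8% in the bud before flowering, 17.8% in florescence and 15.7% 5 days after flowering, with 19.5% in the other-date florescence and 19.9% in the 1 week pod. The 21 nt share was 75.9%, 76.6%, 77.5% and 80.5% over the 4 stages and 78.4% in both the other-date florescence and the 1 week pod. miR159a-3p took 37.3% of the summed signal in the other-date florescence and 37.0% in the 1 week pod, against 28.1% to 31.5% in the other 4 flower libraries.

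M0408-5p and M0151-3p had the same value in each of the 5 flower libraries, 25.47, 28.47, 20.71, 0 and 20.24 TP5M in stage order.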
